A study of Homo sapiens with 12 samples.

Results

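Narrow isolated regions are stretches of at most 2 kb that were called on their own in maps of early DNA synthesis, apart from the broad domains that make up nearly all of those maps. The maps came from EdU-seq with hydroxyurea (EdU-HU-seq) in U2OS-MycER cells, a human osteosarcoma line with Myc joined to a hormone-binding domain that 4-hydroxytamoxifen (OHT) switches on. The narrow regions were selected on their measured width alone: every region on an autosome whose last base lay no more than 2000 bp from its first entered, and narrow regions of different lists that shared a base were merged into 1 locus. Of the 17827 autosomal regions in the 4 lists (18185 on all chromosomes), 471 were narrow, and they fell into 217 loci. Their width is therefore a description and not a result.

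The 12 samples made up 4 conditions with 3 samples each. All cells carried MycER and a doxycycline-inducible hairpin, received 1 µg/mL doxycycline, were arrested for 8 h with 100 ng/mL nocodazole, and spent 24 h in 25 µM EdU with 2 mM hydroxyurea after release from mitosis. In shNT the hairpin was non-targeting, and in shCDK12 it was aimed at CDK12, a kinase that phosphorylates elongating RNA polymerase II. In shNT + OHT and shCDK12 + OHT, 300 nM OHT was present for 40 h in addition. CDK12 levels and Myc activity were not analysed here, and a single cell line was used. The deposited lists hold 1 merged list per condition, so no difference between conditions had a replicate check and no test was run. Reads were not scaled to library size, and reads inside autosomal regions numbered 17261176 for shNT, 49994993 for shNT + OHT, 13220717 for shCDK12 and 28573223 for shCDK12 + OHT.

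EdU is built into DNA as it is copied, and hydroxyurea slows forks by depleting nucleotides, so that label stays close to the origins that fire first. Early origins lie in clusters within open, gene-rich chromatin, and their label usually runs together into broad early replicating regions (ERRs). A region of a few windows differs from that picture in its width. Whether it reflects another kind of signal was not tested, and its position and reads are described. Centromeres are flanked by satellite and duplicated sequence, and chromosomes end in telomere repeats, so both landmarks were used to place the loci. Base sequence and repeat classes at the loci were not analysed here, because no genome sequence of the build of the lists (hg19) was used.

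Narrow regions were most frequent in the silenced cells without OHT and least frequent in shNT and shCDK12 + OHT. There were 88 for shNT, 141 for shNT + OHT, 154 for shCDK12 and 88 for shCDK12 + OHT, which is 2.32%, 3.09%, 3.21% and 1.88% of the autosomal regions of each list. In shNT cells the list with OHT thus held 53 more narrow regions than the one without, whereas in the silenced cells the count dropped by 66. With a common minimum score of 146 the numbers were 88, 129, 100 and 88 in the same order of lists, so that shNT + OHT then held the most, and the count in the silenced cells was still lower with OHT. Windows of the lists are 400 bp wide, and a single window was the most frequent width in every list, with 47, 74, 77 and 47 regions in the same order. The narrow regions covered between 0.0117% and 0.0256% of the called length and held between 0.103% and 0.197% of the reads.

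**Figure D1:**
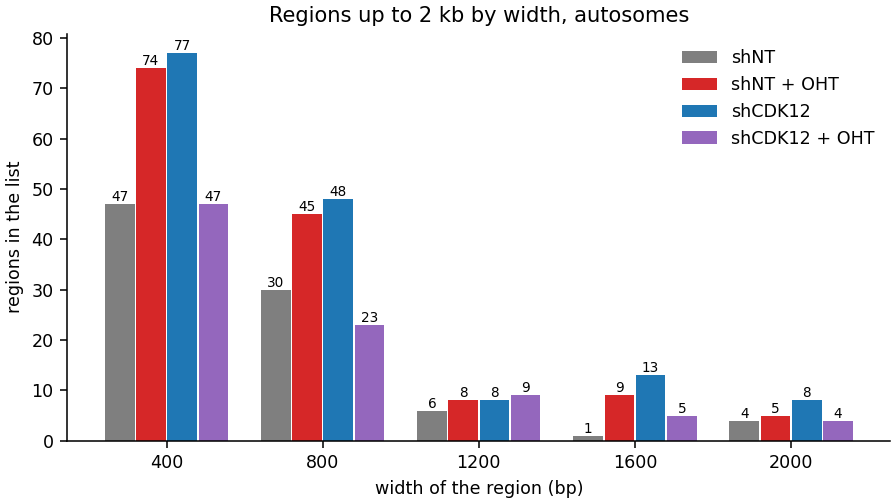
Number of autosomal regions in each list (y axis) by their width in bp (x axis), with 1 bar per condition. Single windows of 400 bp numbered 47 for shNT, 74 for shNT + OHT, 77 for shCDK12 and 47 for shCDK12 + OHT, and each list held at most 8 regions of 2000 bp.

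Read density set the narrow regions apart from wider ones. The median was 207.5 reads per kb in shNT (95% interval of the median from order statistics 190 to 310), 297.5 in shNT + OHT (265 to 370), 135 in shCDK12 (119 to 150) and 263.8 in shCDK12 + OHT (220 to 305). Regions over 10 kb had medians of 21.7, 51.0, 16.7 and 32.4 reads per kb, so that narrow regions exceeded them by factors of 9.55, 5.83, 8.10 and 8.14. Regions between 2.4 and 10 kb lay between both classes, with medians of 48.7, 75.7, 30.8 and 53.0 reads per kb. Every narrow region of every list was denser than the median region over 10 kb of that list. Of the 100 densest autosomal regions of a list, 70 were narrow for shNT, 65 for shNT + OHT, 74 for shCDK12 and 67 for shCDK12 + OHT. Density is reads divided by the width that selected the narrow regions. In shCDK12, for example, the weakest single window held 41 reads, which is already 102.5 reads per kb. The contrast is thus built in part into the selection and is a description with no test.

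**Figure D2:**
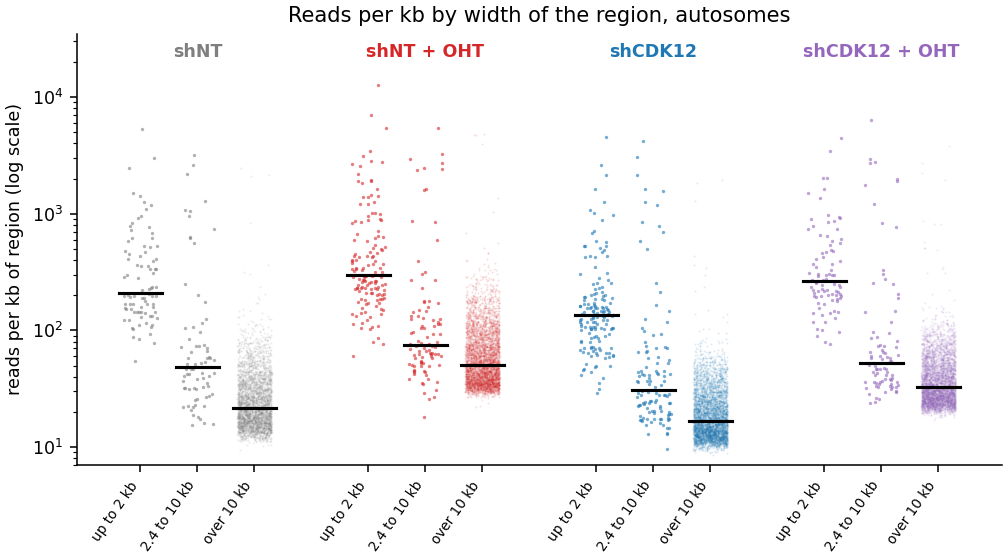
Reads per kb of each autosomal region (y axis, log scale) in 3 width classes of the 4 lists (x axis), where points are regions and black lines are medians. In shNT the medians were 207.5, 48.7 and 21.7 reads per kb from the narrowest to the widest class, and narrow regions lay highest in each of the other lists too.

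The lists differed in how weak a narrow region could be. The fewest reads in a narrow region were 58 for shNT, 81 for shNT + OHT, 41 for shCDK12 and 72 for shCDK12 + OHT. The deposited score of a region was at least 1000 in 87 of 88 narrow regions of shNT, 125 of 141 of shNT + OHT and 84 of 88 of shCDK12 + OHT, but in 99 of 154 of shCDK12. A score of exactly 1000 was held by 47 narrow regions of shNT, 71 of shNT + OHT, 56 of shCDK12 and 47 of shCDK12 + OHT. The score thus did not grade those regions, and its dependence on depth was not analysed. At the width limit, the regions of 2000 bp had median densities of 111.8, 80.0, 53.0 and 140.8 reads per kb in the same order of lists. Those of 2400 bp, the first outside the limit, had medians of 84.2, 149.2, 45.0 and 188.8 reads per kb, over 3 to 7 regions a list. Density thus showed no step at the limit in a common direction.

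Recurrence of the loci ranged from a region in every list to a region in a single list. Of the 217 loci, 96 held a region of any width in all 4 lists (44.2%, Wilson 95% interval 37.8 to 50.9). The same was true of 60.0% of all 4893 merged autosomal regions of any width. In 54 loci the region was narrow in every list (24.9%, 19.6 to 31.0). In between, 29 loci were touched by 2 lists and 20 by 3. At the other extreme, 72 loci were touched by a single list: 43 by shCDK12, 28 by shNT + OHT, 1 by shCDK12 + OHT and 0 by shNT. The share of all merged regions found in a single list was not counted, so these 72 have no background beside them. The intervals cover counting error only.

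**Figure D3:**
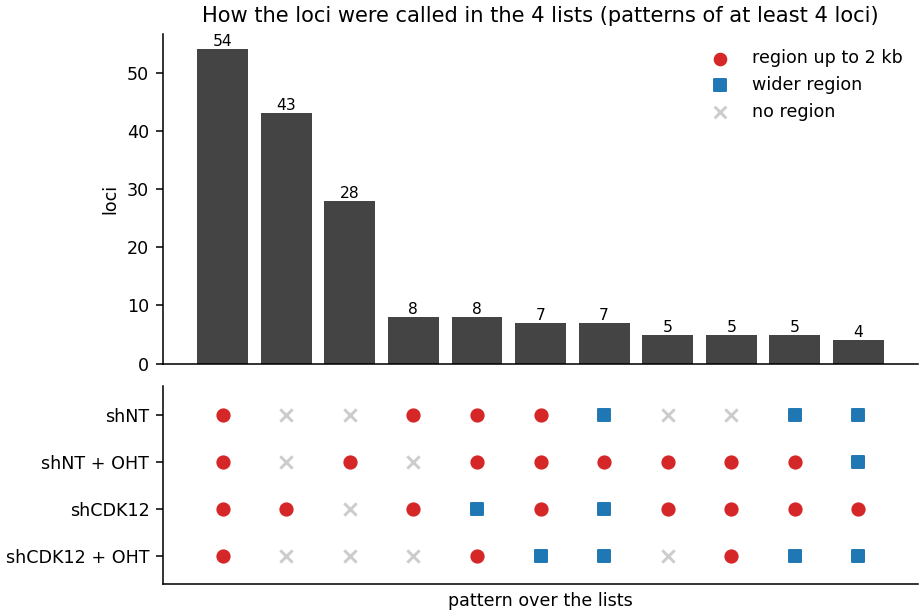
Number of loci (upper y axis) for each pattern of calls over the 4 lists, with 1 column per pattern and, in the lower part, a mark per list for a region up to 2 kb, a wider region or no region. Shown are the 11 patterns of at least 4 loci, which hold 174 of the 217 loci, led by narrow in every list (54), narrow in shCDK12 alone (43) and narrow in shNT + OHT alone (28).

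The loci of a single list were weak ones. Those of shCDK12 held 41 to 93 reads (median 57), and 41 of the 43 held fewer reads than the weakest narrow region of shNT + OHT. Fewer than the weakest narrow region of shCDK12 + OHT were found in 36 of them, and fewer than that of shNT in 23. Those of shNT + OHT held 81 to 154 reads (median 109), above the lowest narrow region of each other list in all 28. All these counts are unscaled reads. The shNT + OHT list held 49994993 reads in autosomal regions, against 17261176 for shNT, 13220717 for shCDK12 and 28573223 for shCDK12 + OHT. A count above or below the minimum of another list was thus not compared at equal depth. The part of the per-list minimum in these absences was not tested, and a locus without a region is only one that was not called. The densest locus of shNT + OHT alone was chr1:169079201-169079600 with 131 reads in its window, and that of shCDK12 alone was chr7:11483601-11484000 with 73. The only locus of shCDK12 + OHT alone, chr1:81941201-81942800, held 123 reads over 1600 bp.

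Sites that were narrow in some lists were not always narrow in others. In 63 of the 217 loci at least 1 list held a wider region at the same place: 35 loci in shCDK12 + OHT, 30 in shNT, 28 in shCDK12 and 10 in shNT + OHT. No locus narrow in 1 list lay inside the widest region of another. A case singled out after its values were seen was chr19:47665201-47665600, a single window with 224 reads in shCDK12 + OHT. The other lists held there domains of 463600 bp (shNT, 25771 reads), 776000 bp (shNT + OHT, 102013 reads) and 426800 bp (shCDK12, 17873 reads). At chr17:33478001-33478800 the region was 800 bp wide with 1157 reads in shNT + OHT. In shNT it was part of 76400 bp with 1404 reads, in shCDK12 of 4400 bp with 460, and in shCDK12 + OHT of 18800 bp with 1056.

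A handful of loci carried much of the signal. The 10 regions with most reads held 52.2% of the narrow reads for shNT, 45.1% for shNT + OHT, 45.1% for shCDK12 and 50.4% for shCDK12 + OHT. Loci were ranked by their mean density over the lists in which each was narrow. These means cover different numbers of lists, and the lists differ in depth. The densest locus by this mean was chr1:91852801-91853200. There a single window held 2139 reads in shNT, 5083 in shNT + OHT and 1816 in shCDK12, while in shCDK12 + OHT the region was 3200 bp wide with 2655 reads. In shNT, shNT + OHT and shCDK12 it was the densest autosomal region of the whole list. The next was chr14:88237601-88238000, a single window in each list, with 1201 reads for shNT, 2780 for shNT + OHT, 1052 for shCDK12 and 1778 for shCDK12 + OHT.

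Most of the other loci in the top 10 were highest in shNT + OHT and lowest in shCDK12. At chr13:28033601-28034400 the reads were 1979 for shNT, 4351 for shNT + OHT, 1704 for shCDK12 and 2731 for shCDK12 + OHT. At chr4:80273201-80274800 they were 2383, 5467, 2010 and 3227 in the same order. Both loci thus had their highest value in shNT + OHT and their lowest in shCDK12. At chr8:70602001-70602800 the reads were 999, 2278, 780 and 1201, and at chr16:21894801-21895600 they were 873, 2213, 711 and 1097. At chr11:85194801-85195600 the region held 955, 2146 and 861 reads in 800 bp, and 1310 reads in 5200 bp in shCDK12 + OHT. Another order of reads was found at chr17:33478001-33478800, given above, where shNT held the most, but over 76400 bp. Per kb, shNT had 18.4 reads there and shNT + OHT 1446. Its place in the top 10 rests on shNT + OHT alone, the only list in which it was narrow. At chr9:44070401-44070800 shCDK12 (408 reads) lay above shNT (383), with 1246 in shNT + OHT and 809 in shCDK12 + OHT. At chr3:96336001-96337200 there were 1699, 2031, 1971 and 1940 reads.

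Over the 54 loci narrow in every list the reads were highest in shNT + OHT in 50 and lowest in shCDK12 in 42. Summed over these loci they came to 18116 for shNT, 39257 for shNT + OHT, 15619 for shCDK12 and 23393 for shCDK12 + OHT. The unscaled read totals of the autosomal regions had the same highest and lowest list. Of all 3103 matched regions of any width, 96.3% were at least 2-fold higher per kb in shNT + OHT than in shNT. How many of all regions had these highest and lowest lists was not counted. The order of the loci was kept from list to list: the rank correlation of their reads was 0.97 between shNT and shCDK12, 0.95 between both lists with OHT, 0.93 between shNT and shNT + OHT and 0.94 between shCDK12 and shCDK12 + OHT (Spearman over 54 loci, which share the libraries and their depth). The weakest of them by mean density were chr16:34021201-34023200, chr10:85213601-85214400 and chr16:47538401-47539600. The first had 78.5 reads per kb for shNT, 202.5 for shNT + OHT, 79.5 for shCDK12 and 191.5 for shCDK12 + OHT. The second had 106.3, 292.5, 67.5 and 141.3 reads per kb, and the third 116.7, 255.8, 117.5 and 147.5.

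**Figure D4:**
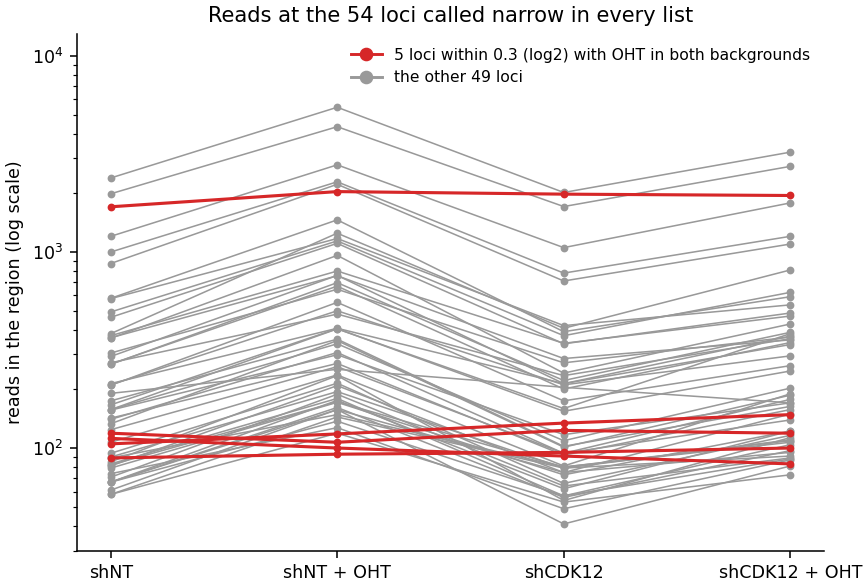
Reads in the region (y axis, log scale) in each of the 4 lists (x axis) for the 54 loci that were narrow in all of them, with 1 line per locus. Red lines are the 5 loci whose reads changed by at most 0.3 on the log2 scale with OHT in both backgrounds. Reads are not scaled to depth, so a flat line does not mark equal signal. The other 49 follow a common course with a peak in shNT + OHT in most cases.

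Most narrow loci held more reads with OHT in shNT cells. Over the 75 loci narrow in both lists, the median log2 ratio of reads per kb was 1.19 (95% interval of the median 1.11 to 1.25), and 70 loci were higher with OHT. A difference of at least 2-fold upward was found in 59 of 75 (78.7%), against 96.3% of all 3103 matched autosomal regions of any width. At least 2-fold downward were 0 loci, against 0.0645%. In matched regions at least 30 kb wide the median was 1.47 (1.46 to 1.48, 2707 regions), and 52 of the 75 narrow loci fell below the lower quartile of those regions (1.32). Relative to the broad regions the narrow loci were thus lower with OHT, by a median log2 of -0.28. Since reads were not scaled to depth, the ratios of narrow and broad regions can be set against each other, but neither is a change per cell.

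In shCDK12 cells the ratio with OHT at narrow loci was smaller. The median log2 ratio was 0.63 over 69 loci (0.52 to 0.74), with 60 higher with OHT. At least 2-fold higher were 11 of 69 (15.9%), against 51.8% of all 3140 matched regions, and at least 2-fold lower was 1 (1.45%), against 0.541%. Broad regions had a median of 1.02 (1.00 to 1.03), and 52 of the 69 loci fell below their lower quartile (0.87). Relative to them the median turned to -0.39. In 49 of the 54 loci narrow in every list the ratio of reads with OHT was larger in shNT cells than in shCDK12 cells, and the rank correlation between both ratios was 0.56 (Spearman, description only). Broad regions also had the larger median in shNT cells (1.47 against 1.02), and their share with a larger ratio there was not counted.

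A few loci held nearly the same number of unscaled reads with and without OHT. Broad regions had median log2 ratios with OHT of 1.47 in shNT cells and 1.02 in shCDK12 cells. Equal reads therefore do not mark equal signal here. In 47 of the 54 loci the reads were higher by more than 0.3 on the log2 scale with OHT in both backgrounds, and in 5 they changed by at most 0.3 in both. These 5 were named after their values were seen. The shares of all matched regions past or within this limit were not counted. At chr15:41324001-41324400 the single window held 112 reads for shNT, 100 for shNT + OHT, 91 for shCDK12 and 83 for shCDK12 + OHT. At chr5:56071601-56072000 it held 119, 107, 123 and 119. At chr7:34674801-34675600 there were 89, 93, 95 and 100 reads, and at chr1:289201-290000 105, 118, 134 and 148. The last was chr3:96336001-96337200, given above, which lies among the densest loci. At 3 of the 5 the called width differed between shNT and shNT + OHT, so that reads per kb were 2.25-fold at chr1:289201-290000, 2.09-fold at chr7:34674801-34675600 and 1.79-fold at chr3:96336001-96337200 with OHT in shNT cells. Between shNT and shCDK12 the reads at chr1:289201-290000 differed by 0.35 on the log2 scale, more than the limit used for OHT. Over the 54 loci the ratio with OHT in shNT cells had a rank correlation of 0.02 with the density in shNT.

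Without OHT, narrow loci held slightly fewer unscaled reads in shCDK12 than in shNT. The median log2 ratio of shCDK12 over shNT was -0.20 over 75 loci (-0.30 to -0.12), with 54 lower and 18 higher. At least 2-fold higher were 0 loci, against 0.518% of 2897 matched regions, and at least 2-fold lower were 4 of 75 (5.33%), against 2.55%. Broad regions had a median of -0.26 (-0.27 to -0.23), and relative to them the direction turned, to 0.060. For 43 of the 75 loci the counting interval of the single ratio included 0. Since reads were unscaled and broad regions had a median of -0.26, a ratio of 0 does not mark equal signal here.

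With OHT present, nearly all narrow loci held fewer reads in the silenced cells. The median log2 ratio of shCDK12 + OHT over shNT + OHT was -0.67 over 76 loci (-0.76 to -0.62), with 70 lower. At least 2-fold lower were 13 of 76 (17.1%), against 18.9% of 3089 matched regions, and at least 2-fold higher were 0, against 0%. Broad regions had a median of -0.66 (-0.68 to -0.65), close to that of the narrow loci. Both intervals cover spread between regions only, with no replicate error, so they are not a test of equality. The silencing comparisons share lists with the comparisons of OHT, and their values are given side by side only.

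Several extremes of these ratios came with a change in called width. At chr1:145277201-145279200, the highest ratio with OHT in shNT cells (log2 3.18 per kb, counting interval 2.83 to 3.53), 110 reads in 2000 bp stood against 199 in 400 bp. At chr6:133592801-133594400, with the highest ratio of OHT in shCDK12 cells (2.20, 1.75 to 2.66) and the lowest of silencing (-1.55, -2.06 to -1.04), shCDK12 held 79 reads in 1600 bp, and the other lists 58 (shNT), 144 (shNT + OHT) and 91 (shCDK12 + OHT) in 400 bp. At chr1:84329201-84330400, the lowest ratio with OHT in shCDK12 cells (-1.27, -1.50 to -1.04) and the lowest of silencing with OHT (-2.67, -2.86 to -2.49), the reads were 365, 756 and 286 in 400 bp and 356 in 1200 bp. The highest ratio of silencing without OHT, 0.74 (0.20 to 1.27) at chr2:79602001-79602800, set 56 reads in 400 bp against 67 in 800 bp.

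Other extremes kept their width. At chr2:89219201-89219600, the lowest ratio with OHT in shNT cells (-0.25, counting interval -0.59 to 0.09, which includes 0), the window held 164 reads in shNT, 138 in shNT + OHT and 169 in shCDK12, while shCDK12 + OHT had a wider region of 8000 bp with 276 reads. At chr4:167944401-167945200, the highest ratio of silencing with OHT (0.73, 0.42 to 1.03), the reads were 145 for shNT + OHT, 95 for shCDK12 and 240 for shCDK12 + OHT, each in 800 bp. It had no region in shNT.

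At 40 of the 54 loci the region had 1 width in all lists, so that width played no part in their ratios. With OHT in shNT cells their log2 ratio had a median of 1.19 and an SD of 0.37, from -0.16 at chr15:41324001-41324400 to 1.70 at chr9:44070401-44070800. For 11 of the 40 the counting interval left out that median. With OHT in shCDK12 cells the median was 0.63 and the SD 0.31, from -0.26 at chr7:10001-10400 to 1.27 at chr16:34021201-34023200, and the interval left out the median in 7. At the last locus the reads were 157 for shNT, 405 for shNT + OHT, 159 for shCDK12 and 383 for shCDK12 + OHT, so OHT went with 2.58-fold and 2.41-fold values, and silencing with 1.01-fold and 0.946-fold values.

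Narrow regions lay far from the broad ones. The median distance to the nearest wider region of the same list was 603 kb for shNT (order-statistic interval 376 to 900), 415.2 kb for shNT + OHT (224 to 537), 372 kb for shCDK12 (238 to 538) and 372.6 kb for shCDK12 + OHT (197 to 604). Wider regions lay 55.6, 48.8, 38 and 37.2 kb from the next wider region in the same order of lists. More than 1 Mb from any wider region were 35.2% of the narrow regions of shNT, 24.8% of shNT + OHT, 22.7% of shCDK12 and 23.9% of shCDK12 + OHT, against 2.55% to 3.91% of the wider ones. No gap between regions of a list was under 4.4 kb, which sets the smallest distance that could occur.

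**Figure D5:**
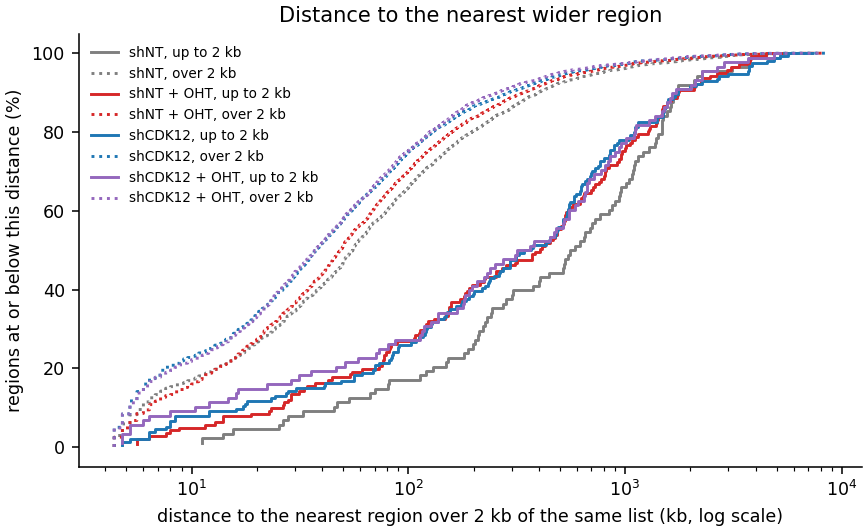
Share of regions (y axis, percent) at or below a given distance to the nearest region over 2 kb of the same list (x axis, kb, log scale), with solid lines for regions up to 2 kb and dotted lines for wider ones. The medians of the solid lines lie between 372 and 603 kb and those of the dotted lines between 37.2 and 55.6 kb.

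Measured against the wider regions of all lists together, isolation was less complete. Of the 217 loci, 63 touched a wider region of some list, 115 (53.0%) lay over 100 kb from any, and 35 (16.1%) over 1 Mb. The share over 1 Mb was 13 of 54 (24.1%, Wilson 95% interval 14.6 to 36.9) for loci narrow in every list and 16 of 72 (22.2%, 14.2 to 33.1) for loci of a single list, and these intervals overlap widely. The most remote locus was chr13:66334801-66335200, 7279.6 kb from a wider region, which only shCDK12 held, with 47 reads. The closest that touched none were 4.8 kb away, chr4:103664001-103665600, only in shCDK12 with 78 reads in 1600 bp, and chr16:34021201-34023200, narrow in every list.

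A small part of the loci lay near the centromere gaps used here. Each chromosome had a single gap, set to whole Mb. Loci next to other unassembled sequence beyond these gaps were not counted as near. Within 5 Mb of such a gap lay 21 of 217 loci (9.68%, Wilson 95% interval 6.42 to 14.3). The same held for 359 of 4740 merged regions over 2 kb (7.57%, 6.85 to 8.36). Chromosome 12 held 5 of these loci and chromosome 7 held 4. Of the 21, 4 were narrow in every list and 7 were found in a single list. The strong loci chr3:96336001-96337200 and chr9:44070401-44070800 were among them, as was chr16:34021201-34023200. Loci near a gap had a median density of 203.8 reads per kb over the lists in which they were narrow, and the others 188.8.

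Chromosome ends held 12 loci within 1 Mb (5.53%, Wilson 95% interval 3.19 to 9.42), against 2.53% (2.12 to 3.02) of merged regions over 2 kb. At chr7:10001-10400, the first region of that chromosome in the lists, the window held 190 reads for shNT, 252 for shNT + OHT, 204 for shCDK12 and 170 for shCDK12 + OHT. At chr1:10001-10800 there were 65 reads in shCDK12, and in shNT + OHT the region was 10400 bp wide with 277. Since the far end of a chromosome was taken as the last base that any list reached, a locus that was itself the last region counts as an end locus.

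Loci were spread unevenly over the chromosomes. Chromosome 12 held 26 (10.2 per 100 merged regions of any width), chromosome 7 held 25 (8.62) and chromosome 4 held 17 (8.33), whereas chromosome 3 held 5 (1.53) and chromosome 22 held 1 (1.03). The densest stretch of 1 Mb was on chromosome 7, where 7 loci lay within 549.2 kb. Regions of all 4 lists touched 5 of them, and each of these 5 was narrow in shNT + OHT. That was usual, since shNT + OHT held a wider region at only 10 of all 217 loci. In 4 of the 5 the fewest reads of any list were in shNT + OHT, which held for 11 of the 96 loci touched in all lists. These reads were not counted over equal widths, since the region was narrowest in shNT + OHT in all 5, with 1 tie. Per kb, shNT + OHT was the highest list at these loci except chr7:91049601-91050400. There it had 143.8 reads per kb, against 161.3 in shCDK12.

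Widths and reads at the loci of that stretch were as follows. At chr7:90755201-90756800 there were 256 reads in 2400 bp in shNT, 224 in 1200 bp in shNT + OHT, 223 in 2400 bp in shCDK12 and 248 in 1600 bp in shCDK12 + OHT. At chr7:90766401-90767600 the reads were 144 in 2800 bp, 128 in 1200 bp, 155 in 2800 bp and 173 in 4800 bp. At chr7:90830801-90831600 they were 205 in 2800 bp, 175 in 800 bp, 295 in 8000 bp and 239 in 2800 bp. At each of these loci the called width was smallest in shNT + OHT. At chr7:91049601-91050400 the reads were 151 in 6800 bp, 115 in 800 bp, 129 in 800 bp and 195 in 6800 bp, and at chr7:91194801-91196800 they were 275 in 16400 bp, 160 in 2000 bp, 291 in 13600 bp and 484 in 20800 bp. The remaining loci were chr7:91032401-91034000, narrow in shNT (112 reads) and shCDK12 (96 reads), and chr7:91303601-91304400, found only in shCDK12 with 70 reads.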

How the data were processed

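EdU-labelled DNA was sequenced in 12 U2OS-MycER samples (4 conditions, 3 samples each), and the authors deposited 1 list of regions per condition, made on merged replicates. The submitters' processing notes name BWA 0.6.2, SAMtools, SICER, hg19 and mm10, without roles. Control library, duplicate removal and thresholds are not given in the sources used here. The deposited count of a region is whole reads, not scaled to depth, and the deposited score is the authors' own value. The smallest total of reads in a list limits the precision of its weak loci.

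Regions lie on 400 bp windows, and coordinates are printed counted from 1. Regions up to 2000 bp on autosomes were merged over lists when they overlapped by at least 1 bp. Presence required 1 bp. Ratios used reads per kb of loci narrow in both lists, and matched regions overlapped one to one. Wilson, order-statistic and exact (Clopper-Pearson) 95% intervals cover counting error and spread between loci only. Centromere gaps were set to whole Mb from general knowledge of hg19, not read from a file. None of the 22 gaps held a region.

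Members, lists and comparisons were chosen with earlier results of these data known. Named are the 10 densest loci, the 3 weakest narrow in every list, the densest locus of each list alone, the nearest and farthest locus, the extremes of each ratio, the densest stretch of 1 Mb and loci inside the widest region of another list. Others are marked as named after their values were seen. No test was run. Width limit, chromosomes, minimum score, overlap rule, distance limits and scaling were varied. Functions were tested on simulated data. Calculations ran in Python 3.11.15 (pandas 2.3.3, numpy 2.4.6, scipy 1.17.1), and plots were drawn with matplotlib 3.10.9.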

Additional observations from a re-analysis of the deposited data

Results flagged for a closer look

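The number of narrow regions changed with OHT in opposite directions in both backgrounds, with a change of 53 for shNT and of -66 for the silenced cells. Replicates were merged before deposit, so this difference was not tested. With a common minimum score the numbers were 88 for shNT, 129 for shNT + OHT, 100 for shCDK12 and 88 for shCDK12 + OHT, so both directions were kept and the fall was smaller.

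Chromosomes X and Y, which the comparisons leave out, also held narrow regions. Together they had 8 for shNT, 4 for shNT + OHT, 13 for shCDK12 and 5 for shCDK12 + OHT, with 2857, 5781, 2503 and 2996 reads.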

How the results depend on the processing

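No paired analysis was possible because the replicates were merged into 1 list per condition before deposit, and for the same reason no replicate could be left out. Of 71 alternative values for 21 results, 56 stayed within 1.5 times the main count or inside the interval of the main median. Scaling to matched regions of at least 30 kb turned the log2 ratio with OHT to -0.28 in shNT cells and -0.39 in shCDK12 cells, and that of silencing without OHT to 0.060. That of silencing with OHT moved to -0.0099. The raw reads of narrow loci were thus higher with OHT, but by less than those of broad regions. A common minimum score of 146 left 100 narrow regions in shCDK12. Over loci narrow in all 4 lists the median density was 587.8 reads per kb for shNT + OHT, 220.6 for shCDK12 and 306.9 for shCDK12 + OHT. Against wider regions of all lists the median distance was 179.2 kb for shNT, 120.4 for shNT + OHT, 205 for shCDK12 and 176.2 for shCDK12 + OHT, and against regions of at least 30 kb it was 625.6 kb in shCDK12. Within 2 Mb of a centromere gap lay 11 loci, and within 10 Mb 38. The ratios of reads not divided by width and of loci with the same width in both lists, chosen after seeing the data, stayed inside the intervals.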
